A study of Sus scrofa with 189 samples.

Results

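Within groups of pigs that share a title code, the animal with the most intramuscular fat (IMF) was compared with the one with the least, in longissimus dorsi, the back muscle sold as loin. The code is DLC plus the next 9 digits of an animal's title, and what it stands for is not stated. A code entered where at least 2 of its animals had a recorded IMF, unmarked titles and an IMF range of at least 0.5. That gave 32 pairs, 64 of the 189 animals sequenced, with 32 called fatter and 32 called leaner below. IMF, whose unit is not stated, chose the pairs and no expression value did.

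All animals were first-generation offspring of Duroc boars and Luchuan sows, a Chinese breed, fed alike on 1 farm and slaughtered at 210 ± 6 days of age. The labels name 8 boars, and give the number of sows as 112 in one place and 158 in another. Muscle was taken 25 minutes after death at the junction of chest and loin, and its polyadenylated RNA was sequenced. No label gives sex, parentage, litter or batch, and partners in a pair may or may not be related. IMF was 4.05 ± 0.544 (SD, n = 32, range 3.07 to 5.47) in fatter and 2.71 ± 0.700 (SD, n = 32, range 1.19 to 3.97) in leaner animals. The gap within a pair ran from 0.5 to 2.91 with a median of 1.225. Of the codes, 17 held only these 2 unmarked animals with a recorded IMF and 15 held more. The animals of intermediate IMF in the latter numbered 26. Animals without IMF, or with titles marked re-analyzed, were not counted. Some marked animals had an IMF beyond that of the pair in their code.

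Fat within a muscle sits mainly in fat cells between the fibre bundles, with some droplets inside the fibres. Fat cells take up fatty acids, make them from glucose, store them as triglyceride under a coat of perilipin, and secrete hormones such as adiponectin and leptin. Muscle fibres burn fatty acids in their mitochondria, whose own genome encodes a small set of subunits of the respiratory chain.

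Expression is given as FPKM, fragments scaled to transcript length and to the mapped fragments of a library, summed per gene. Each difference is the mean over 32 pairs of log2(FPKM + 1) in the fatter minus the leaner partner, a scale that understates changes of low genes. A gene is called where the 2-sided limma p, adjusted by Benjamini and Hochberg over 10717 genes, is under 0.05. Those genes averaged 0.5 FPKM or more over the whole series. Reads per library are unknown, and summed FPKM ran from 364109 to 459187 over the 64 libraries. Their median correlation with other libraries lay between 0.892 and 0.957, and 3 libraries of 3 pairs (2 fatter, 1 leaner) stood apart below 0.91. Muscle genes dominated as labelled: the fast light chain MYLPF had a mean of 16607 FPKM in fatter and 15183 FPKM in leaner animals.

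Fat cell genes were on average higher in the fatter partner, and 1 gene passed the test. This was TUSC5 (also named TRARG1), which serves the trafficking of the insulin-regulated glucose transporter in fat cells. It was the only 1 of 10717 genes called (0.00933%), and 0 genes were called lower. At an unadjusted p under 0.05 there were 360 higher genes (3.36%) and 154 lower genes (1.44%), together 4.8% of those tested. The median difference over all genes was -0.0029, and 48.9% of genes were positive.

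TUSC5, at chr12:46621117-46634332 of Sscrofa11.1, ranged from 3.14 to 32.7 FPKM with a median of 10.0 FPKM in fatter animals. In leaner animals it ranged from 0.983 to 13.7 FPKM with a median of 5.40 FPKM. The groups overlapped, yet the fatter partner was the higher one in 25 of 32 pairs. TUSC5 rose by 0.82 log2 units (SE 0.150, limma adjusted p = 0.0483), from 5.61 ± 3.12 to 10.8 ± 6.36 FPKM (SD, n = 32 each). The call was close to the threshold: leaving out 1 pair at a time ended it for 21 of the 32 pairs, with adjusted p from 0.0106 to 0.116, while the estimate stayed between 0.76 and 0.87.

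**Figure D1:**
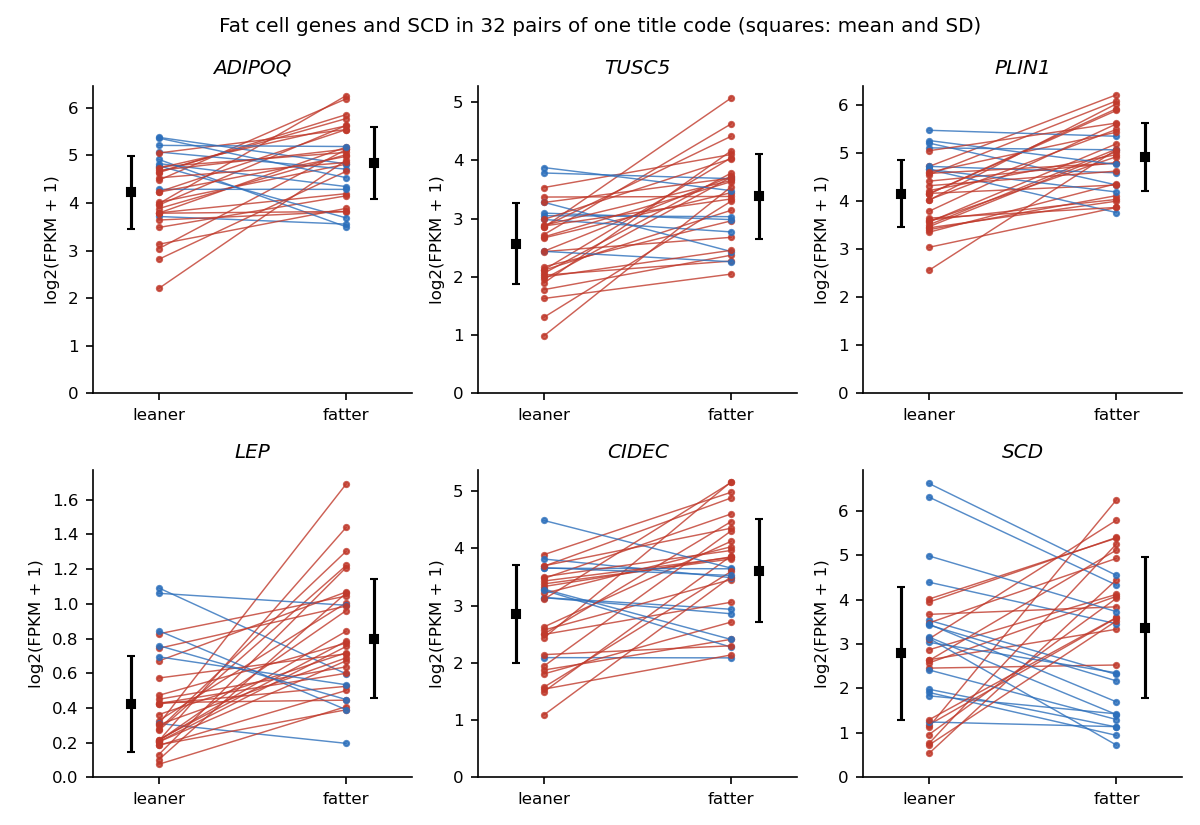
Level of 6 genes in the leaner and the fatter animal of each of 32 pairs, as log2(FPKM + 1) on the vertical axis, with each axis scaled to its gene. Lines join partners, red where the fatter one is higher and blue where it is lower, and squares with bars are group means and SD. TUSC5 and PLIN1 are higher in the fatter partner in 25 pairs and LEP in 26, while SCD is split 17 to 15.

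Adiponectin is the marker gene of the fat cell here. ADIPOQ (chr13:124633684-124648055) ranged from 10.3 to 75.3 FPKM with a median of 28.4 FPKM in fatter animals, and from 3.61 to 40.6 FPKM with a median of 18.2 FPKM in leaner ones. The groups overlapped over most of their range, and the fatter partner was higher in 23 of 32 pairs. The mean was 31.4 ± 17.0 FPKM against 20.0 ± 9.82 FPKM (SD, n = 32 each), a difference of 0.61 log2 units (SE 0.167). Across all genes this was not called (limma adjusted p = 0.567). As 1 of 2 marker genes tested singly, its 2-sided sign-flip permutation test over the 32 pairs gave p = 0.00156, and 0.00312 adjusted over the 2 genes. Both genes were named with earlier results of these animals known, so these p-values are not independent support.

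Stearoyl-CoA desaturase, SCD (chr14:111461157-111478031), introduces the double bond of oleic acid. In fatter animals it ranged from 0.656 to 74.7 FPKM with a median of 11.06 FPKM, and in leaner animals from 0.455 to 96.7 FPKM with a median of 5.79 FPKM. Neither group stood clear of the other, and the highest single value belonged to a leaner animal. The mean difference was 0.58 log2 units (SE 0.346, limma adjusted p = 0.780), with the fatter partner higher in 17 of 32 pairs. The sign-flip permutation test gave p = 0.123, adjusted over the 2 genes 0.123.

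Of the 18 adipocyte marker names, 16 were tested, and RETN and TRARG1, the other name of TUSC5, were not listed or did not pass the filter under those names. All 16 had a positive difference, 12 with an unadjusted p under 0.05 (3.36% of all genes were higher at that p), 1 was called, and their median was 0.44. PLIN1, the coat of the fat cell's lipid droplet, had 33.2 ± 17.2 FPKM in fatter and 19.0 ± 9.69 FPKM in leaner animals (SD, n = 32 each). Its difference of 0.76 (SE 0.150) just missed the threshold (limma adjusted p = 0.0664), with the fatter partner higher in 25 pairs. Leptin, LEP, lay near the floor, from 0.146 to 2.23 FPKM in fatter animals (median 0.666 FPKM) and from 0.0540 to 1.13 FPKM in leaner ones (median 0.248 FPKM). It was nevertheless higher in the fatter partner of 26 pairs, by 0.38 (SE 0.0809, limma adjusted p = 0.102).

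CIDEC, which enlarges lipid droplets by fusion, had 13.6 ± 8.92 FPKM in fatter and 7.46 ± 4.56 FPKM in leaner animals (SD, n = 32 each), a difference of 0.75 (SE 0.172, limma adjusted p = 0.184). The fatty acid binding protein FABP4, the most abundant of these 5 fat genes, had 80.1 ± 34.3 FPKM against 57.6 ± 23.1 FPKM and a difference of 0.49 (SE 0.146, limma adjusted p = 0.780). ADIPOQ, LEP, PLIN1, CIDEC and FABP4 were all higher in the fatter partner in 18 pairs, and none of the 5 was in 3 pairs. In bulk muscle, more fat cells and more RNA of these genes per fat cell cannot be told apart.

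At the other end of the marker list were GPD1 and PLIN4, which muscle fibres also express. GPD1, the glycerol phosphate dehydrogenase, had 316.9 ± 71.6 FPKM in fatter and 302.2 ± 68.1 FPKM in leaner animals (SD, n = 32 each), a difference of 0.07. PLIN4 differed by 0.04, at 66.4 ± 16.8 FPKM against 65.8 ± 21.7 FPKM. The next smallest differences were those of RBP4 with 0.20 (SE 0.140) and CFD with 0.26 (SE 0.159). In the single pairs, between 3 and 16 of the 16 markers were higher in the fatter partner (median 12), and more than 8 were in 25 pairs. The 16 genes' FPKM summed to 445.5 to 1029 (median 722.4) in fatter and 359.8 to 907.3 (median 597.6) in leaner animals.

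PPARG and CEBPA, transcription factors of fat cell formation, had positive differences that were not called. PPARG, the master regulator of that programme, had 1.53 ± 0.729 FPKM in fatter and 1.07 ± 0.578 FPKM in leaner animals (SD, n = 32 each), a difference of 0.29 (SE 0.0856, limma adjusted p = 0.752) with 24 pairs positive. CEBPA differed by 0.38 (SE 0.174), at 5.60 against 3.76 FPKM. In the list of adipogenic regulators and fat precursor cells 10 of 15 tested genes were positive, with a median of 0.04. Other transcription factors there went both ways. CEBPB differed by -0.15, NR1H3 by -0.07, KLF15 by -0.05 and EBF2 by -0.05. CEBPD differed by 0.12, EBF1 by 0.05, RXRA by 0.04 and ZNF423 by 0.01. The list's marker of precursor cells PDGFRA differed by 0.08, DLK1 by 0.02 and CD34 by -0.02. SFRP1, a secreted Wnt inhibitor, had the largest difference of that list with 0.44 (SE 0.115, limma adjusted p = 0.513).

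**Figure D2:**
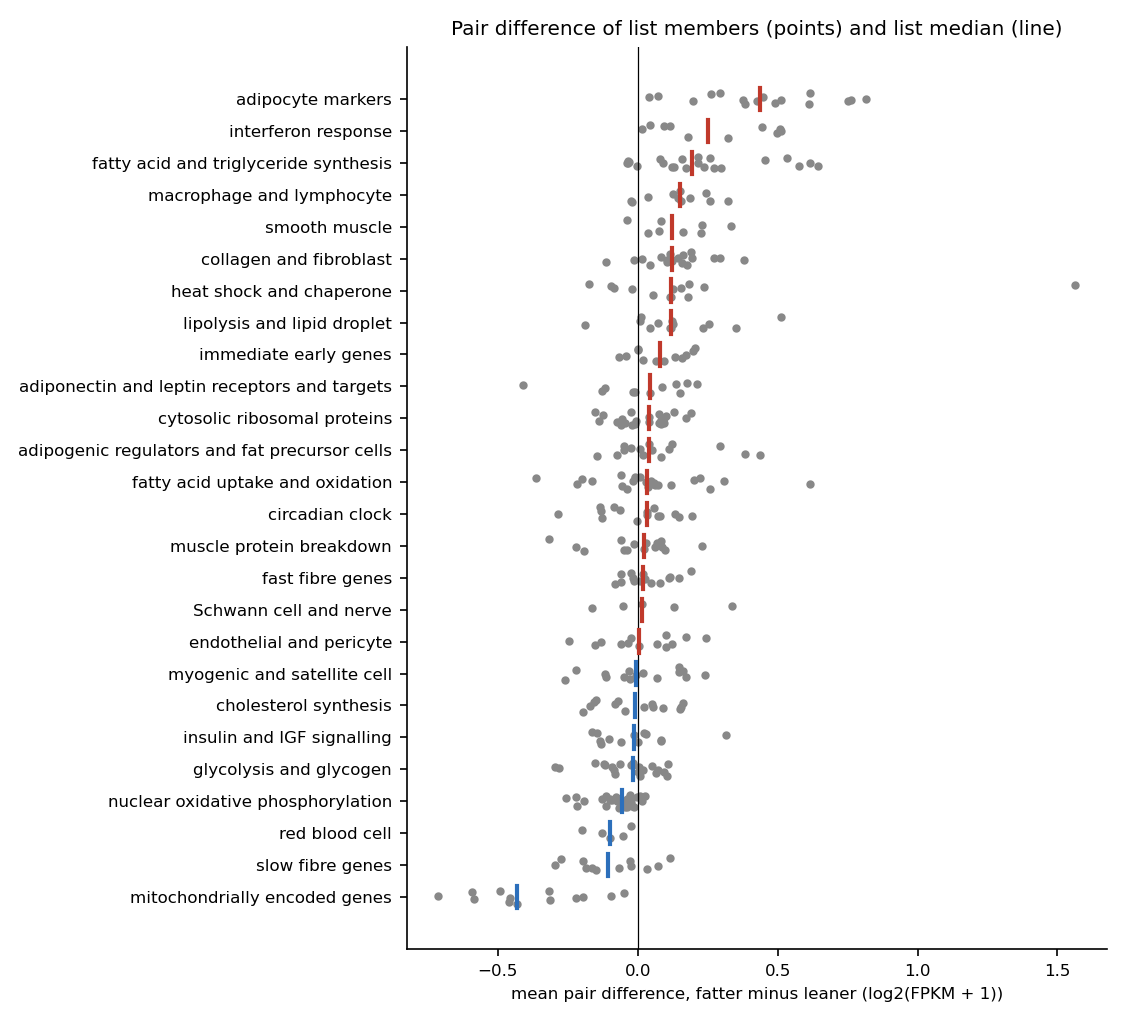
Mean pair difference, fatter minus leaner, in log2(FPKM + 1) on the horizontal axis, for the tested members of 26 gene lists. Each point is a gene and each short line the list median, red above 0 and blue below. Adipocyte markers lie highest (median 0.44, all 16 positive) and mitochondrially encoded genes lowest (median -0.43, all 13 negative), and the isolated point at 1.56 is CRYAB.

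Enzymes that make fatty acids and triglyceride were mostly higher but none was called. Of 22 tested, 17 were positive, 7 of them at an unadjusted p under 0.05, and the median was 0.19. Over all genes 3.36% were higher at that p. ACACA, the carboxylase that commits carbon to fatty acid synthesis, had 2.65 ± 1.59 FPKM in fatter and 1.67 ± 1.22 FPKM in leaner animals (SD, n = 32 each), a difference of 0.46 (SE 0.156). DGAT2, which adds the last acyl chain of triglyceride, had 26.9 ± 25.4 FPKM against 13.6 ± 10.4 FPKM and a difference of 0.64 (SE 0.261). FASN, the fatty acid synthase, had 62.1 ± 60.8 FPKM against 37.3 ± 39.5 FPKM and differed by 0.53 (SE 0.320), with only 18 pairs positive. For FASN, as for SCD, ACACA, ACLY and ME1, the SD within each group exceeded the difference between the group means. This SD ignores the pairing and does not measure the spread of the pair differences. The malic enzyme ME1 differed by 0.16 (SE 0.0815), and ACLY, which makes acetyl-CoA from citrate, by 0.17 (SE 0.121). SREBF1, the lipogenic transcription factor, differed by -0.04 (SE 0.129).

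In the list of lipolysis and lipid droplet genes 12 of 13 tested were positive, with a median of 0.12. The hormone-sensitive lipase LIPE led it with 0.51 (SE 0.193), at 20.5 ± 10.6 FPKM against 14.7 ± 10.7 FPKM (SD, n = 32 each). PNPLA2, the first lipase of the sequence, differed by 0.12 (SE 0.122), and PLIN5, the perilipin of oxidative fibres, by 0.01 (SE 0.141). Uptake and oxidation of fatty acids was split, 14 of 24 positive, with a median of 0.03. LPL, which releases fatty acids from blood lipoproteins, differed by 0.26 (SE 0.126), while the carnitine transferase CPT1B differed by -0.16 (SE 0.131) and ACADM by -0.36 (SE 0.278). None of the genes in either list was called.

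Receptors of adiponectin and genes downstream of both hormones had 0 called members. ADIPOR1 had 44.0 ± 5.63 FPKM in fatter and 44.3 ± 4.90 FPKM in leaner animals (SD, n = 32 each), a difference of -0.01 (SE 0.0560). ADIPOR2 differed by 0.18 (SE 0.113). Of 11 tested genes of this receptor and target list 6 were positive (median 0.04), and the adaptor APPL1 was the most negative with -0.41 (SE 0.211).

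All 13 genes of the mitochondrial genome were on average lower in the fatter partner, none of them called. Their differences ran from -0.71 for ATP6 to -0.05 for COX3 with a median of -0.43, and 10 of 13 had an unadjusted p under 0.05. Over all genes 1.44% were lower at that p. The 13 may vary together, and their joint share is tested below. ND4, a subunit of the first complex of the respiratory chain (mitochondrial genome, 11359 to 12736), ranged from 550.5 to 2417 FPKM in fatter animals (median 1372) and from 838.3 to 3657 FPKM in leaner ones (median 1696). The ranges overlapped, and the fatter partner was lower in 20 of 32 pairs, by -0.32 on average (SE 0.135, limma adjusted p = 0.780). ATP6 had 1683 ± 1951 FPKM against 3035 ± 3105 FPKM (SD, n = 32 each), so that its SD exceeded its mean in both groups. The 2 most abundant, COX3 and COX1, differed least (-0.05 and -0.09).

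Together the 13 genes held 6.06 ± 1.78% of the summed FPKM in fatter and 7.23 ± 2.23% in leaner animals (SD, n = 32 each). The share ran from 2.65% to 9.58% (median 5.98%) in the former and from 4.01% to 12.5% (median 7.25%) in the latter. It was lower in the fatter partner in 21 of 32 pairs, by -1.18 percentage points (SE 0.497). The sign-flip permutation test gave p = 0.0237, and 0.119 adjusted over 5 measures of the library. Without the 3 pairs of the libraries that stand apart the difference was -1.25 (SE 0.533). The other 4 measures were summed FPKM, genes at 1 FPKM or more, share of the 10 most abundant genes and median correlation, with adjusted p = 0.648 each.

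The fat cell and the mitochondrial differences did not coincide pair by pair. Among the 23 pairs with higher ADIPOQ in the fatter partner the mitochondrial share was lower in 16 and higher in 7. Among the other 9 it was lower in 5 and higher in 4.

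**Figure D3:**
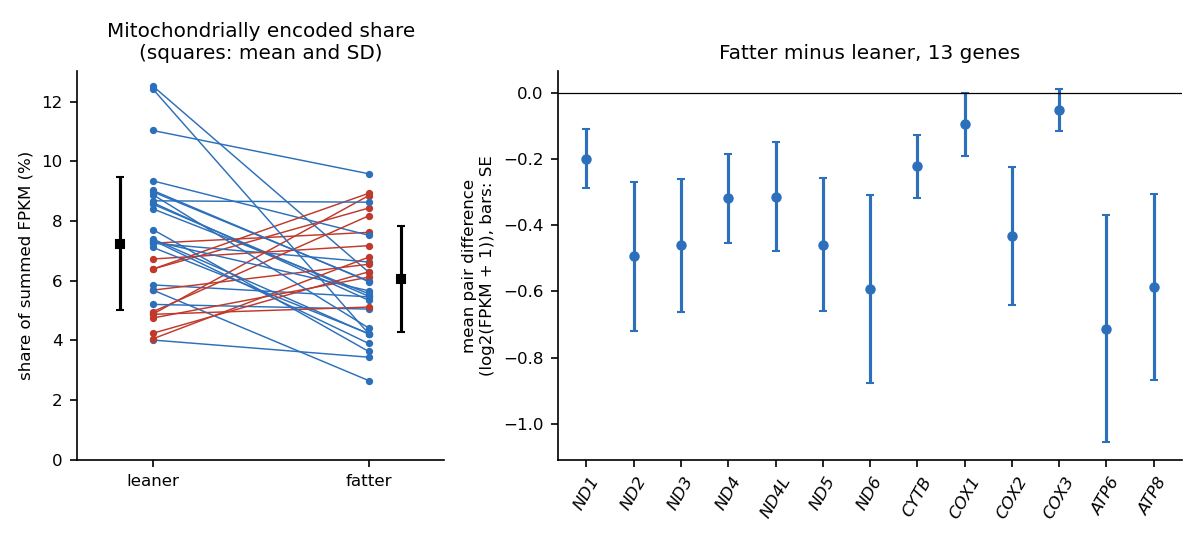
Left, share of the summed FPKM held by the 13 mitochondrially encoded genes (%, vertical axis) in the leaner and fatter animal of 32 pairs, with red lines where the fatter one is higher, blue where it is lower, and squares with bars for mean and SD. Right, mean pair difference in log2(FPKM + 1) with its SE for each gene. The share is lower in the fatter partner in 21 pairs and all 13 means are below 0.

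Respiratory chain genes of the nucleus had differences nearer to 0. Of 27 tested 24 were negative, with a median of -0.06 and 0 called. The 9 pairs with titles beginning DLC15 went the other way (17 of 27 positive, median 0.02), and without the 3 pairs of libraries that stand apart 17 of 27 were negative (median -0.03). NDUFA4, of the terminal oxidase, had 207.7 ± 36.4 FPKM in fatter and 238.0 ± 45.7 FPKM in leaner animals (SD, n = 32 each), a difference of -0.19 (SE 0.0670, limma adjusted p = 0.780). Cytochrome c, CYCS, differed by -0.26 (SE 0.123) and citrate synthase, CS, by 0.01 (SE 0.0823). SLC25A4, which exchanges ADP and ATP across the inner mitochondrial membrane, is outside that list and was lower in the fatter partner of 24 pairs, by -0.28 (SE 0.0892, limma adjusted p = 0.780).

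Fibre type genes showed no called difference. MYH7, the slow myosin, had 813.1 ± 306.5 FPKM in fatter and 832.5 ± 306.7 FPKM in leaner animals (SD, n = 32 each), a difference of -0.03 (SE 0.161). The fast myosins MYH2 and MYH4 differed by -0.02 (SE 0.0904) and -0.08 (SE 0.128), and the signs of all 3 changed under other settings. Reads of the similar fast myosins MYH2 and MYH4 could be assigned to either of them, which was not tested. Of 12 slow fibre genes 9 were negative (median -0.11), led by MYOZ2 with -0.30 (SE 0.159), though only 6 of 12 (median 0.02) in pairs with titles beginning DLC15, and of 15 fast fibre genes 9 were positive (median 0.02).

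Genes of other cells in the muscle were set beside these values, none of them called. In collagen and fibroblast genes 17 of 19 were positive (median 0.12), with COL6A2 at 54.0 ± 14.5 FPKM against 45.5 ± 15.8 FPKM (SD, n = 32 each, difference 0.27, SE 0.108). That list was positive in 12 of 19 (median 0.01) in the 23 pairs with titles beginning DLC16 and in 17 of 19 (median 0.39) in the 9 beginning DLC15, and without pair 30 alone, in order of title code, its median was 0.21. Macrophage and lymphocyte genes were positive in 9 of 11 (median 0.15), smooth muscle genes in 7 of 8 (median 0.12) and endothelial and pericyte genes in 7 of 13 (median 0.003). Red blood cell genes were negative in 5 of 5 (median -0.10), with the haemoglobin chain HBB at 75.1 ± 52.8 FPKM against 95.3 ± 96.9 FPKM. Interferon response genes were positive in 10 of 10 (median 0.25) but had 0 at an unadjusted p under 0.05. Without pair 28 alone 8 of 10 were positive (median 0.15), without pair 13 also 8 of 10 (median 0.22), and the medians were 0.64 in DLC15 and 0.12 in DLC16 titles. MX1, for example, ranged from 1.65 to 57.6 FPKM in fatter and from 1.11 to 53.4 FPKM in leaner animals. Summed FPKM of the collagen list ran from 900.1 to 2598 (median 1564) in fatter and from 680.4 to 2566 (median 1390) in leaner animals, and of the macrophage list from 165.9 to 406.4 (median 245.2) and from 153.0 to 324.1 (median 219.3). The part of these cells in the fat cell differences was not tested.

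The 10 higher genes of smallest p held 5 outside the lists: THAP7, SFRP5, ACAA1, ADIRF and TSPO. THAP7, a zinc finger protein, had 11.0 ± 3.14 FPKM in fatter and 7.79 ± 2.80 FPKM in leaner animals (SD, n = 32 each), a difference of 0.46 (SE 0.0943, limma adjusted p = 0.0861). ACAA1, a thiolase of peroxisomal fatty acid oxidation, differed by 0.32 (SE 0.0805, limma adjusted p = 0.477), and TSPO, a protein of the outer mitochondrial membrane, by 0.53 (SE 0.142, limma adjusted p = 0.567). SFRP5, a secreted Wnt inhibitor made by fat cells, had 10.7 ± 6.25 FPKM against 6.33 ± 2.57 FPKM and a difference of 0.58 (SE 0.143, limma adjusted p = 0.364). ADIRF, a fat cell differentiation factor, differed by 0.62 (SE 0.164, limma adjusted p = 0.513).

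In the lower direction TRIM23, a ubiquitin ligase, came first. It ranged from 0.118 to 4.39 FPKM (median 1.90) in fatter and from 0.307 to 6.72 FPKM (median 3.09) in leaner animals, and the leaner partner was the higher one in 26 of 32 pairs. The difference of -0.55 (SE 0.116) was not called (limma adjusted p = 0.0861). APC, which restrains Wnt signalling, had 0.590 ± 0.483 FPKM against 1.03 ± 0.636 FPKM (SD, n = 32 each), a difference of -0.34 (SE 0.0898, limma adjusted p = 0.513) with 27 pairs negative. ANK3, the ankyrin that anchors membrane proteins, differed by -0.47 (SE 0.123, limma adjusted p = 0.513). The other 7 of the 10 lower genes of smallest p were HS3ST5, FILIP1L, SLC25A4, MKLN1, CHCHD3, MED13L and ACVR1, with differences from -0.96 to -0.20 and adjusted p = 0.780 each.

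The largest mean difference of all tested genes in the positive direction belonged to the small heat shock protein CRYAB, which guards the fibre's contractile proteins. It ranged from 6.76 to 1099 FPKM (median 148.2) in fatter and from 2.23 to 1010 FPKM (median 58.6) in leaner animals, almost the same span. The fatter partner was higher in 24 of 32 pairs, by 1.56 on average (SE 0.50, limma adjusted p = 0.780). The 26 animals of intermediate IMF had 280.0 ± 395.0 FPKM (SD), above the mean of both the fatter (235.8) and the leaner animals (104.5). Among the other 12 tested chaperones the differences ran from -0.17 (HSPE1) to 0.23 (HSPB7).

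Genes whose pair differences resembled those of ADIPOQ were found by Pearson's r over the 32 pairs. FABP4 came first (r = 0.878), followed by SFRP1 (0.850), RETSAT (0.824), PLIN1 (0.824), MGST1 (0.808), ELOVL5 (0.794), CYP4V2 (0.789), PPP1R1B (0.785), MAL2 (0.781) and ADIRF (0.775). The median r over all genes was 0.097, and all points share the same libraries. Of these 10 genes, RETSAT, which saturates retinol, had 17.4 ± 6.42 FPKM in fatter and 13.1 ± 3.90 FPKM in leaner animals (SD, n = 32 each), a difference of 0.36 (SE 0.118). PPP1R1B, a phosphatase inhibitor, differed by 0.55 (SE 0.178). None of the 10 was called.

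Whether pairs with a wider IMF gap differed more was asked with the gap as a slope. By limma 0 of 10717 genes were called (0%), and 331 had an unadjusted p under 0.05. ADIPOQ differences followed the gap with r = 0.264 (permutation p = 0.145) and rho = 0.258 (permutation p = 0.153), and SCD differences with r = 0.223 (permutation p = 0.223) and rho = 0.178 (permutation p = 0.325). Adjusted over the 3 measures tested, including the mitochondrial share (r = 0.166, rho = 0.135), the p of r were 0.335, 0.335 and 0.365 and those of rho 0.459, 0.460 and 0.460. Without the 2 pairs farthest from the median gap r was 0.161 for ADIPOQ, 0.10 for SCD and 0.182 for the share. No relation with the gap was detected for any of the 3.

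The mean ADIPOQ difference was 0.62 in the 22 pairs with a gap of at least 1 and 0.58 in the 10 pairs below. SCD was higher in the fatter partner in 14 of the 22 wider pairs (mean 0.98) and in 3 of the 10 narrower ones (mean -0.32), a split that was not tested on its own. Pairs just inside the rule, with gaps of 0.5 and 0.52, had ADIPOQ differences of -0.48 and 0.04. The codes just outside it, with gaps of 0.37 and 0.38, had 1.33 and 1.37. In the 9 pairs where ADIPOQ was lower in the fatter animal the gap had a median of 1.12, and in the other 23 it was 1.28.

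**Figure D4:**
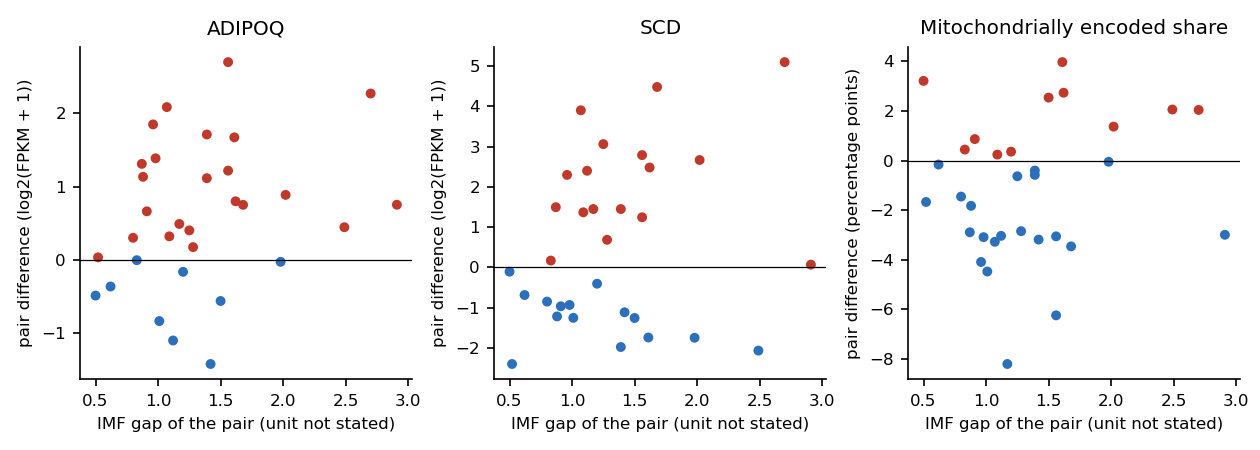
Pair difference, fatter minus leaner, against the IMF gap of the pair (horizontal axis, unit not stated) for ADIPOQ and SCD in log2(FPKM + 1) and for the mitochondrially encoded share in percentage points. Each of the 32 points is a pair, red above 0 and blue below. Pairs on both sides of 0 occur at small and at large gaps, and r is 0.264, 0.223 and 0.166.

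Animals of intermediate IMF were set between their code's extremes in the 15 codes that had them. ADIPOQ averaged 4.04 log2 units in the leaner, 4.49 in the intermediate and 4.66 in the fatter animals. SCD averaged 2.43, 2.66 and 3.51, and the mitochondrial share 6.88%, 6.99% and 5.43%. By these means the intermediate animals were nearer to the fatter ones in ADIPOQ and nearer to the leaner ones in SCD. In the share they lay slightly above the leaner ones. ADIPOQ was higher in the fatter than in the intermediate animals in only 7 of 15 codes (mean difference 0.17, SE 0.283). Where the intermediate animals lay in IMF varied between codes and was not accounted for. None of these steps passed a sign-flip permutation test, whose smallest adjusted p over 6 tests was 0.120.

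The same relation was taken as a slope on IMF within codes. It used all 103 unmarked animals with IMF in codes that held 2 or more such animals. By limma 0 of 10717 genes were called (0%), 214 had an unadjusted p under 0.05, and SFRP5 had the smallest adjusted p (0.0791). Per IMF unit ADIPOQ had a slope of 0.40 (SE 0.119), TUSC5 of 0.47 (SE 0.109), PLIN1 of 0.46 (SE 0.108), LEP of 0.24 (SE 0.0524) and SCD of 0.46 (SE 0.200). Their slopes between codes, from the mean IMF of each code over 142 animals, were 0.24, 0.17, 0.19, 0.13 and 0.09. The test of within minus between called 0 genes (0%), with 412 at an unadjusted p under 0.05 and 0.821 as the smallest adjusted p. A difference between both kinds of slope was therefore not shown for any gene.

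In the 78 unmarked animals that belong to no pair, of which 26 share a code with a pair, 0 genes were called by limma (0%) and 456 had an unadjusted p under 0.05 (4.25%). Slopes were 0.29 for ADIPOQ (SE 0.109), 0.23 for TUSC5 (SE 0.0987), 0.24 for PLIN1 (SE 0.0939), 0.12 for LEP (SE 0.0433) and 0.26 for SCD (SE 0.189). Of the 16 adipocyte markers 15 had a positive slope there, 5 of the 16 at an unadjusted p under 0.05, a share that was 4.25% over all genes (2.82% with a positive slope). The 21 libraries whose titles carry the unexplained mark re-analyzed had low or high IMF with none between, over a wider range than the pairs. Some of them share a code with a pair. In these libraries 3 genes were called (0.028%), all with positive slopes. These were LEP (0.15, SE 0.0256, limma adjusted p = 0.0374), SNCG, a synuclein (0.09, limma adjusted p = 0.0374), and TUSC5 (0.28, SE 0.0514, limma adjusted p = 0.0485). SNCG, named after its values were seen, had a pair difference of 0.25 (SE 0.0714, limma adjusted p = 0.639).

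The mitochondrially encoded genes had slopes of opposite sign within and between codes. All 13 were negative within codes (median -0.12 per IMF unit), while all 13 were positive between codes (median 0.15) and in the animals outside the pairs (median 0.17). The 78 animals outside the pairs are among the 142 of the slope between codes, so both results are not independent. As genes of 1 genome, the 13 are not 13 separate cases. ND4, for example, had a slope of -0.09 within codes (SE 0.0987, limma unadjusted p = 0.359). In the re-analyzed libraries 11 of 13 were positive (median 0.04), near the share of all genes there. Over all 10717 genes, 48.7% were positive within codes (median -0.0015), 6883 between codes (median 0.02), 59% outside the pairs (median 0.01) and 73.5% in the re-analyzed libraries (median 0.02). The test of within minus between had an unadjusted p under 0.05 for 5 of the 13, against 3.84% of all genes. The smallest was 0.0350 for ND3, and none was called (limma adjusted p = 0.821 each). Nuclear respiratory chain genes were negative within codes in 27 of 27 (median -0.05) and positive between codes in 23 of 27 (median 0.03, close to the median of 0.02 over all genes). ACACA (0.23 within, -0.15 between), THAP7 (0.25 and -0.06) and TRIM23 (-0.26 and 0.19) also differed in sign. THAP7 and TRIM23 were named for their small p in the pair difference, whose animals are also in the slope within codes. Their contrast is therefore not independent of that choice. Adipocyte markers were positive in 16 of 16 within and 15 of 16 between codes.

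**Figure D5:**
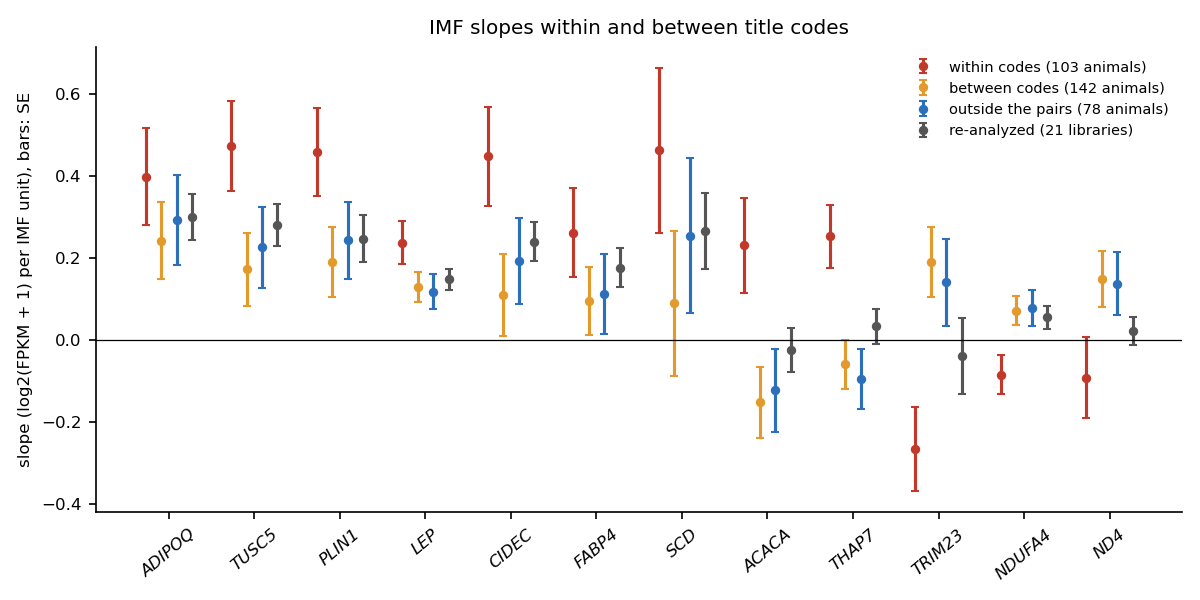
Slope of log2(FPKM + 1) per IMF unit with its SE (vertical axis) for 12 genes, within codes (red), between codes (orange), in unmarked animals outside the pairs (blue) and in re-analyzed libraries (grey). ADIPOQ, TUSC5, PLIN1, LEP, CIDEC, FABP4 and SCD lie above 0 in each of the 4, whereas TRIM23, NDUFA4 and ND4 lie below 0 within codes and above 0 between them. TRIM23, NDUFA4 and ND4 were named for a small p in the pair difference, whose animals are also in the slope within codes.

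Titles begin with DLC15 for 9 pairs and with DLC16 for 23, which the labels do not explain. ADIPOQ differed by 1.04 in the former and 0.44 in the latter, SCD by 1.09 and 0.37, TUSC5 by 0.89 and 0.79, and the mitochondrial share by -1.72 and -0.96 percentage points. The test of the difference between both sets called 0 genes by limma (0%), with 538 at an unadjusted p under 0.05 and a smallest adjusted p of 0.956.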

How the data were processed

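Deposited values, 1 per transcript and library, carry no unit in the file header. They were taken as FPKM made by the authors, from the column layout and the stable library sums. HISAT2 2.0.5, StringTie 1.3.3 and Sscrofa11.1 are named per the submitters' processing notes. The sources used here name no annotation release or filter. Without counts, depth and counting error are unknown.

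The 18114 transcripts were summed to 12651 genes, and the 10717 genes averaging 0.5 FPKM or more over 189 libraries were tested on log2(FPKM + 1) with limma 3.58.1 in R 4.3.3 (lmFit, eBayes with a mean trend). The pair difference had the title code as a factor. Sign-flip tests used 100000 resamples in Python 3.11. Library 39, far from the others, was left out, as were animals without IMF. P-values treat codes as independent.

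Members, lists and tests were chosen with earlier results of these data known. Named genes were ADIPOQ and SCD, called genes, the 10 of smallest p in each direction, 20 genes chosen by name, the member of smallest p in each of 27 lists, and the 10 most like ADIPOQ. Further list members are given as examples, and 1 named gene is not reported here. Of the 10 sex-linked genes of 1 list, 0 were measured. On simulated data, 82% of genes changed by 0.5 log2 units and 98% of those changed by 1 were recovered in the pair difference. False calls numbered 8 among the unchanged genes of the 10717. The simulated noise was normal and independent between genes, which these data need not be. The simulation changed 100 genes by each size, and the Benjamini-Hochberg threshold is stricter where fewer genes change. With 1 gene called here, the shares recovered overstate what the pair difference could find. PLIN1, with a difference of 0.76, was not called. Uncalled genes can therefore not be read as unchanged. Alternatives were another pseudocount, filters, scalings, no code factor, subsets of pairs, robust variance, and each pair left out. 2 more, without 3 pairs and scaled to nuclear genes, were added after seeing the data.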

Additional observations from a re-analysis of the deposited data

How the results depend on the processing

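The TUSC5 call depended on the settings, its estimate less so. It held in 14 of 44 alternatives, with estimates from 0.76 to 0.94. The pair difference had 0 genes higher with a pseudocount of 0.1, no filter, quantile normalization, a median shift, gaps of at least 1, titles DLC15 alone, titles DLC16 alone or robust variance, and 3 among genes averaging 5 FPKM or more (TUSC5, PLIN1 and THAP7). Where 0 were called, 139 to 829 genes were higher at an unadjusted p under 0.05. Over these settings TUSC5 had adjusted p from 0.0243 to 1.00. Both added alternatives, without the 3 pairs holding libraries that stand apart and scaled to nuclear genes, called 1 gene higher, TUSC5. With each pair left out in turn, 0 to 3 genes were higher and 0 to 1 lower (TRIM23, without pair 25 or 31). TUSC5 kept its call without pair 3, 10, 13, 15, 16, 17, 20, 21, 25, 30 or 31, numbered by title code, and lost it without any other. The cause was not tested.

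The deviations of partners had a median correlation of -0.036 (-0.551 to 0.683), against a median of -0.003 with other libraries. It was over 0.1 in 10 of 32 pairs, and 2 fatter and 3 leaner libraries were closest to their own partner. The fit with no replicate block gave 0 genes higher in the pair difference. For the slope on IMF, leaving out the code gives a pooled slope over the 103 animals. It mixes differences within and between codes, so it is another quantity than the slope within codes. This pooled slope called 1 gene higher, LEP. For some named genes, none of them called, its sign was opposite to that within codes. It was 0.0174 for MYH7, 0.0118 for HMGCS1, 0.0257 for MYOZ2, -0.0318 for MYLPF, 0.0577 for ND4 and -0.0118 for COL6A2. Likewise it was 0.0388 for CAST, -0.0094 for STAT3, -0.0861 for C1QB, 0.0299 for EPB42, 0.14 for NR1D2 and -0.0344 for RPL3.

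Pair differences reversed for MYH7 (0.0016 with quantile normalization, 0.0763 in DLC15 titles, -0.1157 to 0.018 with a pair left out), MYH2 (0.0628 with quantile normalization, 0.0823 in DLC16 titles, 0.0031 without the 3 pairs, -0.0496 to 0.0275 with a pair left out), MYH4 (0.23 in DLC15 titles) and PDK4 (-0.16 at gaps of at least 1, -0.70 in DLC15 titles). All 13 mitochondrially encoded genes stayed lower with any pair left out and in each other alternative except DLC15 titles alone (11 of 13). The 16 adipocyte markers stayed higher, apart from 15 of 16 in DLC15 titles and without pair 32, and of 12 that passed the filter at 5 FPKM all were higher. Unknown depth limits all low genes, such as LEP.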

Other observations

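Lists not described above had small medians in the pairs. Of 22 glycolysis and glycogen genes 9 were positive (median -0.02), with UGP2, which makes the glucose donor of glycogen, lowest at -0.30 (SE 0.153). Circadian clock genes were positive in 8 of 15 (median 0.03), and cytosolic ribosomal proteins in 13 of 24 (median 0.04). Cholesterol synthesis was split 7 to 7 (median -0.01), with HMGCS1 at -0.20 (SE 0.0971). Immediate early genes were positive in 10 of 12 (median 0.08), with JUN at 0.17 (SE 0.103). Muscle protein breakdown was positive in 8 of 15 (median 0.02), myogenic and satellite cell genes in 7 of 15 (median -0.01), insulin and IGF signalling in 5 of 13 (median -0.01), and Schwann cell and nerve genes in 3 of 5 (median 0.01). In none of these lists was a gene called by limma in the pair difference.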
